A study of Mus musculus with 2 samples.

Results

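The subject is the set of chromatin contacts between positions inside the domain of Gli2 in wild-type mouse limb buds. Gli2 encodes a zinc-finger transcription factor that carries Hedgehog signals to their target genes. Members were all pairs of bins with both ends in chr1:120660001-120990000 (mm9, 330 kb) at a distance of 20 kb or more, leaving out the bin that holds the Gli2 start. With 10 kb bins, 32 of the 33 bins in this stretch took part, and they formed 466 of the 112101 pairs of the map at 20 kb or more. With 5 kb bins, 65 of 66 bins formed 1894 of 447931 pairs. The region was chosen by its insulation, and its corner by its contact value, in these same counts. Every contact value here is therefore a description, given with its counting error and with no test.

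The contacts were measured by capture Hi-C, in which fixed chromatin is cut with DpnII and religated, and fragments from 1 chosen locus are enriched with probes. The material was the fore- and hindlimbs of wild-type embryos at E10.5, made into a cell suspension with trypsin and fixed in 2% PFA. Fragments were joined with T4 DNA ligase and captured with SureSelect beads, and the labels give neither strain nor number of embryos. Both samples of this group carry the number 2 as their replicate in the titles, and they were merged by the authors into 1 map before deposition. The series asks which elements keep En1 expressed in the developing limb. There was no contrast of genotype or treatment in these files, no spread between embryos could be seen, and the limbs hold several cell types whose contacts are averaged.

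Chromosomes are folded into domains, stretches whose parts contact each other more often than they contact their surroundings. In current models the cohesin complex draws chromatin into loops until it meets the DNA-binding protein CTCF, and a domain then often shows a focus of contact between its ends, here called the corner. Limb buds are patterned by Sonic hedgehog from their posterior margin, and GLI proteins act in the cells that receive it.

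Gli2 (ENSMUSG00000048402.8) was the only protein-coding gene that overlapped the region. It lies on the minus strand at chr1:120730709-120950196 and filled 66.5% of the region, so transcription runs from higher to lower coordinates. The transcript that spans the gene has 14 exons. Exons 3 to 14 lie in the part near the gene's 3′ end, and introns 1 and 2 measure 51.1 and 112 kb. Between the lower edge of the region and the gene lay 70.7 kb, called the low flank, and between the Gli2 start and the upper edge 39.8 kb, called the high flank. The nearest protein-coding genes outside were Tcfcp2l1, 78.3 kb below, and Inhbb, 322 kb above. By bin midpoint, 22 member bins of 10 kb belonged to the gene body, 7 to the low flank and 3 to the high flank. Of the body bins, 7 held an exon and 15 held intron only.

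The sequences shown first are those at the ends of the region that match the CTCF consensus, because the strongest contact joined these ends. The consensus of 15 letters was searched on both strands of the NCBIM37 genome, which is the mm9 assembly, with at most 1 mismatch. Capitals mark the match and lower case the 7 bases on either side, and each is written 5′ to 3′ on the strand of its match. The first lies in the low edge bin, the next ones in the bin before the high edge bin, and the last ones in the high edge bin itself.
Low edge bin, chr1:120669068-120669096, minus strand, 0 mismatches: gtaattaCCAGCAGAGGGCGCCggagcac
Bin before the high edge, chr1:120971651-120971679, plus strand, 1 mismatch: cccttctCCACTAGGGGGCCCCatctctg
Bin before the high edge, chr1:120979369-120979397, minus strand, 1 mismatch: cactgggCCACTGGGTGGCAGCactgagt
Bin before the high edge, chr1:120979385-120979413, plus strand, 1 mismatch: cagtggcCCAGTGGAGGGCAGCacttagc
High edge bin, chr1:120980415-120980443, minus strand, 1 mismatch: aattacaCCACCAGAGGGCAGAagaaaac
High edge bin, chr1:120984292-120984320, plus strand, 1 mismatch: atcttatCCACCAGGTGGCGATctaatgc

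The region held 9 such matches in 6 of its 33 bins (18.2%), against 60 of 475 bins of the map (12.6%). Thus 6 of the 9 matches lay in the low edge bin and the last pair of bins. The other 3 were all on the minus strand: 1 in the low flank at chr1:120718817-120718831 and 2 in introns of Gli2, at chr1:120816124-120816138 and chr1:120866831-120866845. A match shows where the letters occur, not that CTCF was bound there in limb buds. The intronic match without a mismatch is shown because it lies far from both ends.
Gli2 intron, chr1:120866824-120866852, minus strand, 0 mismatches: gtggggaCCAGTAGAGGGCACTggatccc

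The map held 6484654 read pairs in 475 bins of 10 kb, from chr1:119650001-124400000. Of these, 169765 read pairs fell into the 466 member pairs. The total per bin in the region ran from 16364 to 55287 with a median of 31795, above the map's median of 22376, and no bin of the region was under 25% of that median. Every member pair had read pairs: the lowest count was 76, the median 280 and the highest 1813 at 10 kb, and the lowest was 7 at 5 kb. The number of DpnII sites (GATC) per bin had the same median of 25 in the region and in the map. The median GC content was 49.4% in the region and 43.9% in the map.

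Contacts inside the domain were more frequent than distance and coverage gave for the map, and the excess grew with distance. The expected count of a pair took the map's mean balanced (KR) value at its distance and scaled it by the 2 bins' balancing factors, so that a ratio of observed to expected of 1 marks the average of the map. This ratio is the value given for pairs, classes and bins below. Pairs that share a bin share its factor and are not independent. Over all members, 169765 read pairs stood against an expected 144616, for a ratio of 1.17 (exact Poisson 95% interval 1.17 to 1.18). The interval covers counting error only. Single pairs ran from 0.429 to 7.68 with a median of 1.25, and 379 of 466 were above 1. An expected count from distance alone, which leaves coverage in, gave 1.86 over all members, 1.91 for pairs inside the gene and 12.6 for the corner.

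**Figure D1:**
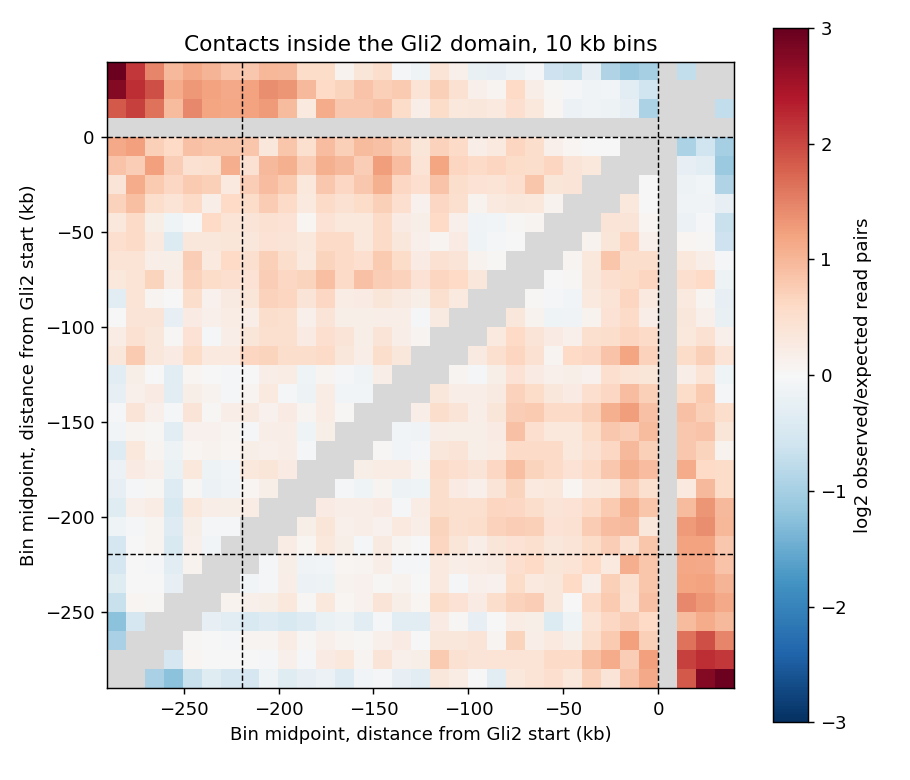
Observed/expected read pairs (log2 colour scale) for every member pair of 10 kb bins, both axes giving the bin midpoint's distance from the Gli2 start in kb; dashed lines mark the ends of Gli2, and grey marks pairs under 20 kb and the bin of the Gli2 start. The deepest red lies where the ends of the region meet, at 7.68, and blue lies beside both edges at short distance, down to 0.429.

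By distance, all members together had a ratio of 1.03 (1.03 to 1.04) at 20 to 50 kb, 1.16 (1.14 to 1.17) at 60 to 100 kb and 1.29 (1.27 to 1.31) at 110 to 150 kb. It was 1.39 (1.37 to 1.41) at 160 to 200 kb, 1.73 (1.697 to 1.77) at 210 to 250 kb and 2.93 (2.86 to 3.01) at 260 to 320 kb. The excess was thus close to the map's average for near pairs and highest for pairs that span most of the region.

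Pairs inside the gene body exceeded the average of the map at every distance band. The 210 body pairs had 98799 read pairs against an expected 80811, for a ratio of 1.22 (1.22 to 1.23). Their counts ran from 133 to 1813 with a median of 360.5, and 193 of the 210 were above 1. The value was 1.13 (1.12 to 1.13) at 20 to 50 kb, 1.30 (1.28 to 1.31) at 60 to 100 kb, 1.48 (1.46 to 1.51) at 110 to 150 kb and 1.56 (1.51 to 1.60) at 160 to 200 kb. The intervals of these 4 bands did not overlap, and the single body pair at 210 kb had 1.79 (1.59 to 2.00).

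Contacts of the gene body with its flanks started at or below the average of the map and rose past it. With the low flank, 153 pairs had a value of 1.10 (1.09 to 1.11) in all. That value was 0.992 (0.972 to 1.01) at 20 to 50 kb, 0.990 (0.971 to 1.01) at 60 to 100 kb and 1.53 (1.49 to 1.58) at 210 to 250 kb. With the high flank, 66 pairs had the like value of 1.10 (1.09 to 1.12) in all, but a wider course: 0.692 (0.669 to 0.716) at 20 to 50 kb, 0.954 (0.924 to 0.985) at 60 to 100 kb and 2.03 (1.958 to 2.10) at 210 to 250 kb. At 20 to 50 kb the body pairs therefore stood highest, the pairs with the low flank lay at the map's average, and the pairs across the Gli2 start lay below it. This order holds with the balancing factors in the expected count. With distance alone, given only over all distances, the pairs with the low flank had 1.81 and those with the high flank 1.72.

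Summed contacts within each flank were below the average of the map with the balancing factors in the expected count. The 15 pairs inside the low flank had 8818 read pairs, for a ratio of 0.824 (0.807 to 0.842), and 6 of them were above 1. The 8 pairs with an end in the low edge bin or the bin at 120690001 ran from 0.429 to 0.838, and the other 7 from 0.981 to 1.07. The only pair inside the high flank had 636 read pairs, for a ratio of 0.602 (0.556 to 0.651). With distance alone the low flank was at 1.30 (1.28 to 1.33), above the average, and the high-flank pair at 0.956 (0.884 to 1.03). Between the flanks the order turned: 20 pairs at 240 to 310 kb, without the corner, had 5617 read pairs against an expected 1922, for a ratio of 2.92 (2.85 to 3.0002). All 20 were above 1, from 1.81 to 6.78.

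**Figure D2:**
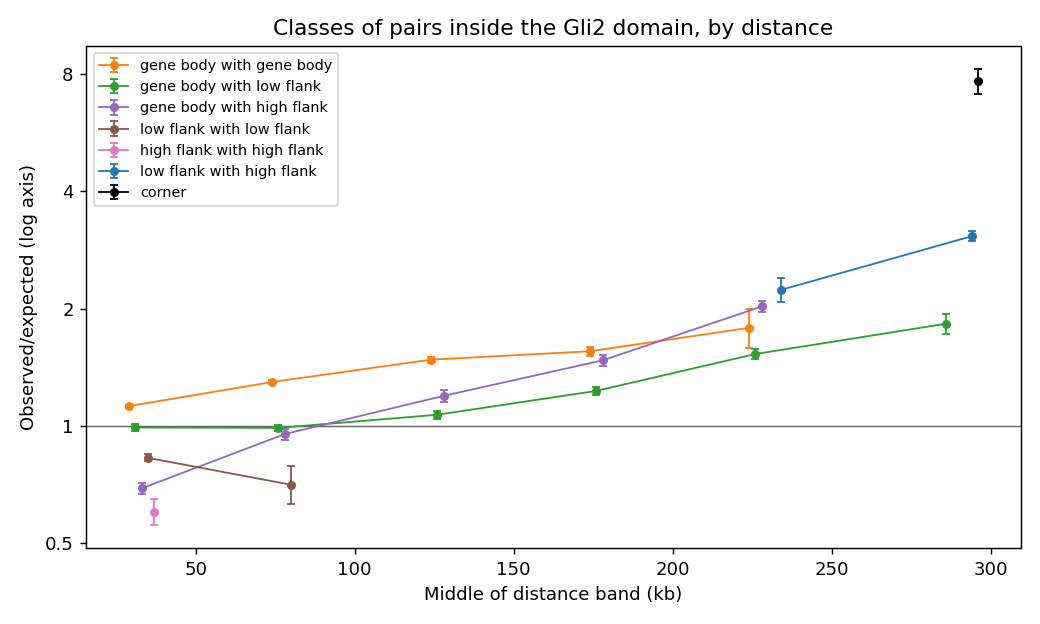
Observed/expected read pairs (log axis) of each class of pairs against the middle of the distance band in kb, classes set slightly apart for sight; bars are exact Poisson 95% intervals. Body pairs rise from 1.13 to 1.56 over the first 4 bands, pairs of the body with the high flank from 0.692 to 2.03, and the corner stands at 7.68.

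Contact frequency fell more slowly with distance in the gene body than over the map. At 20 kb the mean KR value of body pairs was 786 ± 76.9 (SD over 20 pairs of the merged map, not over replicates) against 700 over the map. At 100 kb it was 226 ± 41.3 (12 pairs) against 148, and at 190 kb 162 ± 13.5 (3 pairs) against 89.9. The ratio of body to map thus went from 1.12 to 1.53 and 1.80 at these distances. The least-squares slope on log scales over 20 to 200 kb was −0.662 (standard error of the line 0.0274, 19 distances) for body pairs, −0.688 (0.0272) for all members and −0.844 (0.0338) for the map. No test of the difference between slopes was made, since body pairs are also part of the map.

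Only at 200 kb did the map's curve jump, to 121. A single pair of poorly covered bins outside the region, chr1:119720001-119730000 with chr1:119920001-119930000, had 98 read pairs and a KR value of 15216 at that distance. Without poorly covered bins the map's mean at 200 kb was 83.1. The value at 160 to 200 kb was then 1.535 in place of 1.39 for all members and 1.67 in place of 1.56 for body pairs. It was 1.38 in place of 1.23 for body with low flank, and 1.66 in place of 1.48 for body with high flank.

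**Figure D3:**
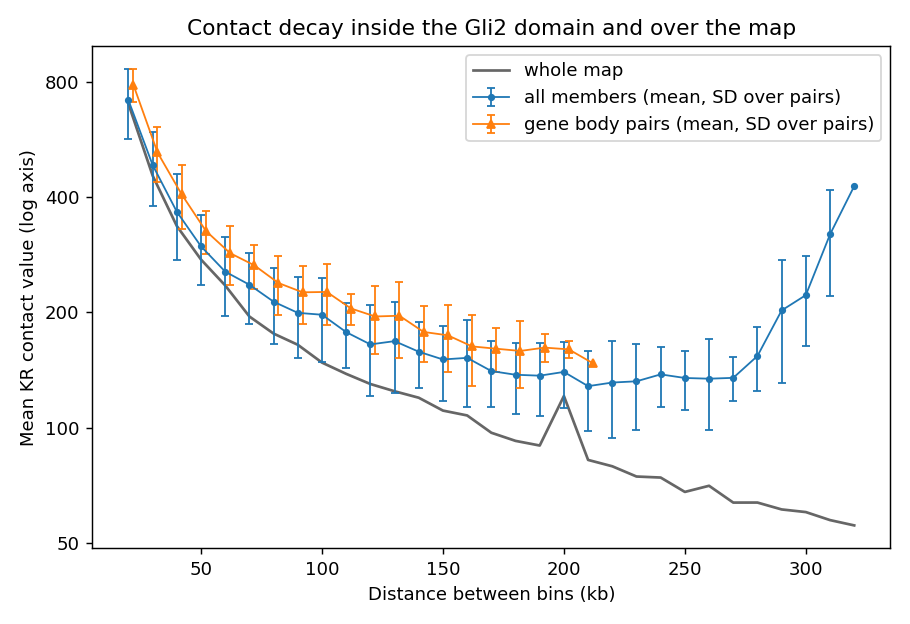
Mean KR value (log axis) against distance in kb for the whole map (grey), all members (blue) and gene body pairs (orange, shifted by a small step to the right); bars are the SD over pairs of the merged map. The members' curve falls to a flat stretch past 200 kb and climbs to 427 at 320 kb, the corner, where the map is at 55.6.

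The longest members went against the usual fall with distance. The mean KR value over members was 140 at 200 kb and reached 427 in the single pair at 320 kb, the corner, where the map's mean was 55.6. Beyond the corner's own bins the same climb was present in the pairs that lie beside it.

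The corner joined chr1:120660001-120670000 to chr1:120980001-120990000 with 722 read pairs against an expected 94.1, for a ratio of 7.68 (7.13 to 8.26). Of the 441 pairs at 320 kb with a KR value, it was the highest, before 4.30 and 4.15, and their median was 0.835. Both edge bins had ordinary totals for the region, 36987 and 29952.

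The corner was part of a broad focus with a graded rim. The 3 members next to it together had a value of 5.398 (5.11 to 5.69), the 5 members at 2 bins from it 3.46 (3.30 to 3.64), and those at 3 bins 2.02 (1.85 to 2.20). The members at 3 bins were only the 3 pairs of the bin at 120690001 with the high flank. At 4 bins the value was 2.08 (1.98 to 2.17), no lower than at 3 bins. At 5 to 7 bins it was 1.91 (1.82 to 2.01), 1.73 (1.67 to 1.80) and 1.62 (1.57 to 1.68), a further fall in smaller steps.

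The 5 other members with the highest lower bounds all joined the first 3 bins to the last 3 bins. The bins at 120660001 and 120970001 had 662 read pairs, for a ratio of 6.78 (6.27 to 7.32). The bins at 120670001 and 120970001 had 368 and 4.68 (4.21 to 5.18), those at 120670001 and 120980001 had 324 and 4.35 (3.89 to 4.85), and those at 120670001 and 120960001 had 339 and 4.14 (3.71 to 4.604). The last, 120680001 with 120970001, had 361 and 3.81 (3.42 to 4.22). The bin at 120970001, which holds 3 of the CTCF matches printed above, was an end of 3 of these 5 pairs. So was the bin at 120670001, which holds no match.

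The rule cut through this focus on both sides. Just outside, the bin at 120650001 had 329 read pairs with the high edge bin, a value of 4.97 (4.45 to 5.53), which was above the 4.35 of the pair 1 bin inside the low edge. On the other side the fall was sharper: the low edge bin had a value of 2.48 (2.12 to 2.87) with the bin at 120990001, 173 read pairs, against 6.78 with the bin just inside. The pair 1 bin outside on both sides had 1.97 (1.62 to 2.38). A CTCF match without a mismatch, chr1:120656337-120656351 on the minus strand, lay in that bin at 120650001, and one with 1 mismatch, chr1:120990477-120990491 on the plus strand, in the bin at 120990001.

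Bins of 5 kb placed the peak in 1 quadrant of the corner. The bins chr1:120665001-120670000 and chr1:120980001-120985000 had 344 of the 722 read pairs (47.6%, Wilson 95% interval 44.0 to 51.3%), a value of 11.5 (10.3 to 12.8), the highest of the 1894 members at 5 kb. The other quadrants had 207 read pairs, for a ratio of 6.94 (6.03 to 7.96), 107 and 5.44 (4.46 to 6.57), and 64 and 3.41 (2.63 to 4.36). The next highest member at 5 kb, 9.59 (8.42 to 10.9) with 239 read pairs, joined the same lower bin to chr1:120975001-120980000. All 3 of these 5 kb bins hold CTCF matches printed above: the minus-strand match without a mismatch in the lower bin, and 1 match on each strand in each of the others. Such a match occurred in 7 of the 66 bins of 5 kb in the region (10.6%) and in 62 of 950 in the map (6.53%).

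**Figure D4:**
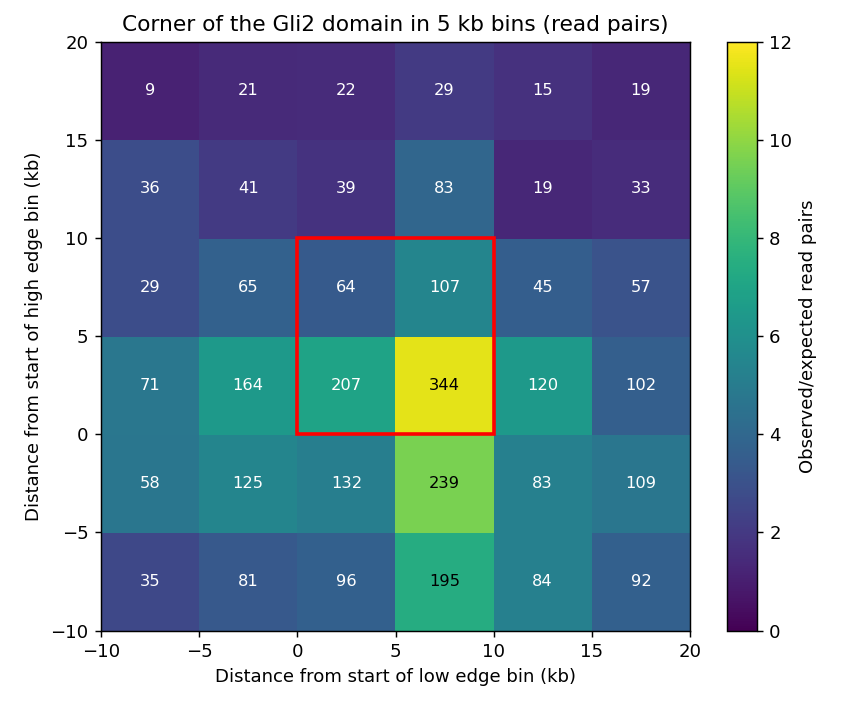
Read pairs (numbers) and observed/expected values (colour) of 5 kb bin pairs around the corner, the axes giving the distance in kb from the start of the low edge bin and of the high edge bin; the red square is the 10 kb corner. The pair with 344 read pairs has the highest value, 11.5, and the column of the same lower bin keeps 239 and 195 read pairs at the next lower steps.

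With the balancing factors in the expected count, both edge bins contacted the near part of the domain less than the average of the map and the far end more. The low edge bin at 120660001 had a value of 0.576 (0.551 to 0.602) with the 5 low-flank bins at 20 to 60 kb, and all 5 had upper bounds below 1. Its lowest was 0.429 (0.383 to 0.480), 312 read pairs, with the bin at 120690001. With the 22 body bins it had 1.01 (0.978 to 1.04) in all, which hid a course from 0.707 at 70 kb to 2.21 at 280 kb. Here 7 upper bounds lay below 1 and 10 lower bounds above it. Among these 7 was the pair at 200 kb, with the bin at 120860001, at 0.785 (0.650 to 0.939). Its expected count used the map's mean of 121 at 200 kb, which was 83.1 without poorly covered bins. With the 3 high-flank bins the low edge bin had 5.94 (5.67 to 6.23). An expected count from distance alone gave this bin 1.83 over all its members, in place of 1.01.

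The high edge bin at 120980001 ran the opposite way along the coordinates. It had 0.602 with the bin 20 kb away, or 0.956 with an expected count from distance alone. With the body bins at 40 and 50 kb it had 0.5002 (0.445 to 0.560) and 0.459 (0.375 to 0.558), the latter on 102 read pairs. Over the 22 body bins it had 0.931 (0.902 to 0.960), with 7 upper bounds below 1 and 8 lower bounds above. The pair at 200 kb, with the bin at 120780001, had 1.07 (0.935 to 1.22) against the same raised mean and is in neither count. With the 7 low-flank bins the high edge bin had 3.20 (3.07 to 3.35), from 1.81 to 7.68. Body bins near the Gli2 start thus had more than average contact with the far low edge and less than average with the near high edge.

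**Figure D5:**
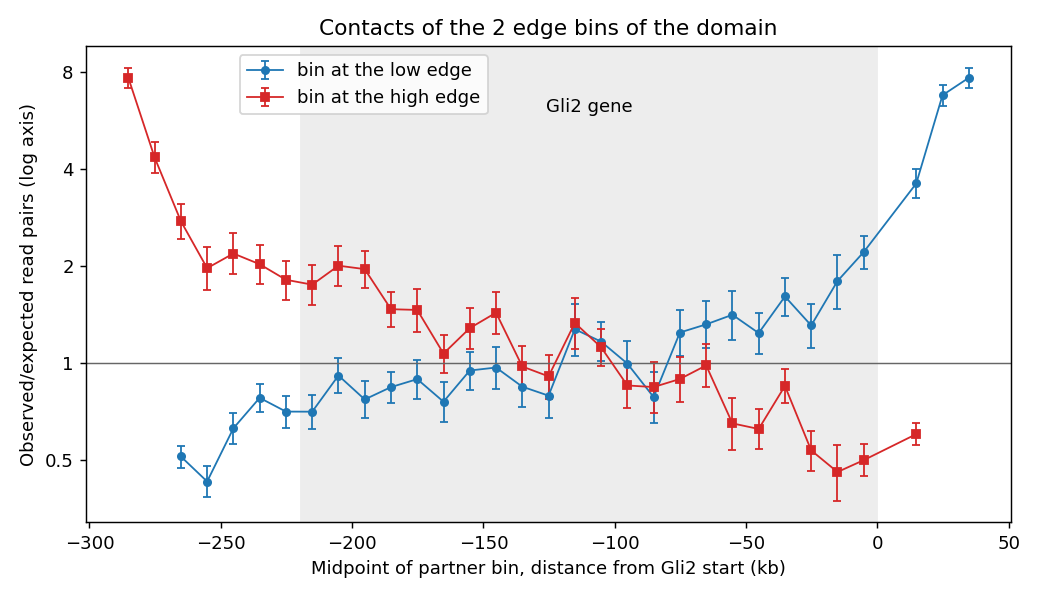
Observed/expected read pairs (log axis) of the low edge bin (blue) and the high edge bin (red) with every member bin at 20 kb or more, against the partner's distance from the Gli2 start in kb; bars are exact Poisson 95% intervals and the grey band is Gli2. The curves cross in the middle of the gene, and each ends at 7.68 where it reaches the other edge.

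With the balancing factors in the expected count, 4 of the 5 members with the lowest upper bounds had an edge bin as one end. Beside the pair at 0.429, the low edge bin had 639 read pairs, for a ratio of 0.513 (0.474 to 0.555) with the bin at 120680001. The remaining one joined the bins at 120940001 and 120960001, which flank the Gli2 start bin, and had 662 read pairs, for a ratio of 0.516 (0.477 to 0.557). The insulation score, the log2 of mean contact across a bin within 150 kb relative to the map's median, peaked at 0.56 inside the gene, in the bin at 120820001. It fell to −0.71 in the low edge bin and −1.11 in the high edge bin.

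A pair was called high where its lower bound exceeded 1.5, and low where its upper bound was under 1 divided by 1.5. At 10 kb, 70 of 466 members (15%) were called high and 7 (1.5%) low, where 3.16% and 9.37% of the 14136 pairs of the map at the same distances were. At 5 kb, 198 of 1894 members were high and 48 (2.53%) low, where 2.16% and 5.7% of the map's 55059 pairs at these distances were. Since the region was chosen for strong contacts inside it, nothing is read from these shares.

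The high calls were spread unevenly over distance and class. At 20 to 50 kb, 1 of 112 members was called (0.893%, map 1.44%), at 110 to 150 kb 9 of 95 (9.47%, map 2.52%), at 210 to 250 kb 21 of 45 (46.7%, map 3.69%) and at 260 to 320 kb 20 of 24 (83.3%, map 6.18%). By class, 24 of 210 body pairs, 9 of 153 pairs of body and low flank, 16 of 66 of body and high flank, and all 21 pairs between the flanks were called (map 3.16%). The low calls were 4 pairs of body and high flank, 2 in the low flank and the 1 in the high flank (map 9.37%). The median distance was 75 kb for body pairs and 280 kb between the flanks without the corner. Class and distance are therefore mixed in these counts, and the map's shares are not split by class.

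Inside the gene, the highest lower bounds belonged to pairs that joined the middle of the gene to the stretch just downstream of its start. The bins at 120800001 and 120930001, 130 kb apart, had 219 read pairs, for a ratio of 2.39 (2.08 to 2.72). Those at 120830001 and 120930001 had 147 and 2.25 (1.91 to 2.65), and those at 120800001 and 120920001 had 383 and 2.09 (1.88 to 2.31). All these bins are intronic. The bins at 120930001 and 120830001 had the lowest totals of the region, 16364 and 16595 read pairs, and with an expected count from distance alone the summed ratio of the bin at 120930001 was 1.21 in place of 1.40. The pair at 120800001 and 120920001 had ordinary totals of 28710 and 32421.

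The 3 body pairs with the lowest upper bounds had an end in the bin at 120760001, which holds exons 4 and 5 and had the highest total of the region. Its values were 0.894 (0.830 to 0.963) with the bin at 120810001, 0.917 (0.862 to 0.974) with that at 120790001 and 0.916 (0.841 to 0.995) with that at 120820001. Body pairs elsewhere came as low: the bins at 120850001 and 120890001 had 0.909 (0.815 to 1.01), and those at 120790001 and 120820001 had 0.927 (0.863 to 0.995). Body pairs therefore varied from 0.894 to 2.39, a narrower range than the pairs between the flanks.

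Bins without an exon had higher values among themselves than bins with one. At 20 to 50 kb the value was 1.17 (1.16 to 1.19) over 43 pairs of intron-only bins, 1.06 (1.05 to 1.08) over 23 mixed pairs and 1.09 (1.06 to 1.11) over 8 pairs of exon bins. At 60 to 100 kb it was 1.39 (1.36 to 1.41) for 35 intron-only pairs and 1.22 (1.199 to 1.24) for 35 mixed pairs. Of the 7 exon bins, 5 lie in the 3′ part of the gene, so exon content and position cannot be told apart.

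Bin by bin, the highest summed values over all members of a bin were 1.496 (1.46 to 1.53) in the bin at 120970001, in the high flank, and 1.40 (1.37 to 1.44) in the bin at 120930001, in intron 1. The lowest were 0.859 (0.839 to 0.879) in the bin at 120690001, in the low flank, and 1.01 (0.985 to 1.03) in the low edge bin. This order turned with an expected count from distance alone, which gave 1.29 in the bin at 120690001, 1.83 in the low edge bin, 1.21 in the bin at 120930001 and 2.304 in the bin at 120970001. The bin at 120690001 was low with near partners up to 100 kb, at 0.738 (0.716 to 0.761), and above average with farther ones, at 1.16 (1.12 to 1.21). The bin at 120970001 was at 0.906 (0.872 to 0.942) with near and at 2.08 (2.03 to 2.13) with farther partners. The bin of the Gli2 start, left out of the members, had a value of 1.27 (1.25 to 1.30) over 30 pairs with them. Pairs at 10 kb, also left out, had 0.974 (0.967 to 0.981) against 1.01 (0.997 to 1.02) at 20 kb, the first distance of the members.

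Measured the same way, with the start bin included and at 20 to 300 kb, the domain of Gli2 had a value of 1.17 (1.16 to 1.18) over 493 pairs. The domains that hold the starts of Inhbb, Steap3 and En1 had 1.08 (1.07 to 1.08), 1.06 (1.05 to 1.06) and 1.00 (1.00 to 1.01). At 160 to 200 kb the value was 1.42 (1.40 to 1.44) for Gli2, 1.17 (1.16 to 1.19) for Inhbb, 1.201 (1.18 to 1.22) for Steap3 and 1.04 (1.03 to 1.06) for En1. At 20 to 50 kb it was 1.02, 0.995, 0.913 and 0.918 in the same order. The rise with distance was thus present in each of these domains and not particular to that of Gli2. The expected counts at 160 to 200 kb include the map's raised mean at 200 kb. These domain values were not recomputed without poorly covered bins. The pair of first bin and closing bin had 7.68 for Gli2 at 320 kb (722 read pairs) and 5.96 (5.18 to 6.83) for En1 at 620 kb (207 read pairs). The value was 3.67 (3.16 to 4.24) for Inhbb at 370 kb (185 read pairs). For Steap3 at 410 kb it was 2.76 (2.05 to 3.64), on only 50 read pairs. With distance alone the Steap3 pair was at 1.13 (0.836 to 1.48), an interval that holds 1. The domains differ in length and were all defined by their own contacts, so these values stand side by side with no test of their differences.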

How the data were processed

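Per the labels' protocols, limbs at E10.5 were fixed in 2% PFA and processed for capture Hi-C with DpnII. Per the submitters' processing notes, Bowtie2 2.3.4.1, Juicer 1.7.6, SAMtools and the build mm9 were used. The deposited file names carry HiCUP, a mapping quality of 30, 50 bp and a merge of the libraries. The authors deposited raw counts of read pairs per pair of bins, and a balanced contact signal (KR in the file names, read as Knight-Ruiz), made separately at each bin size. The 5 and 10 kb tables were used, and bin pairs that they do not list were taken as 0.

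From these, balancing factors were solved from the ratio of raw count to KR value, and expected counts, exact Poisson 95% intervals and insulation (150 kb window, prominence 0.2) were computed with Python 3.11.15, numpy 2.4.6 and scipy 1.17.1. A bin was poorly covered under 25% of the map's median total. Bins were put in the gene body or a flank by midpoint in GENCODE M1 on NCBIM37. Read pairs carry no molecular identifiers. Intervals cover counting error only, since they come from the counts of 1 merged map. On counts simulated from these expected counts with set class factors, 7 of 7 classes over 466 pairs were recovered within their intervals. The same expected counts made the simulated counts and divided them, so this checks the computation and not the expected counts.

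Named pairs were the corner, the 5 other members with the highest lower and the 5 with the lowest upper bounds, the 2 highest and 2 lowest bins, and the top 5 kb pair in the corner. The 3 highest and 3 lowest body pairs and the CTCF matches beside the edges were singled out after their values were seen. The members and lists were chosen with earlier results of these data known.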

Additional observations from a re-analysis of the deposited data

How the results depend on the processing

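The files used hold 1 merged map, so no sample was left out. For a ratio of observed to expected, a move is any shift past the counting interval. For the share of members called high, it is a change by a factor above 1.5. For a slope, it is a shift past the interval from the standard error of the line. No paired analysis was possible because both samples were merged before deposition. Where no reason is given, the cause was not tested. For body pairs (1.22), pairs between the flanks (2.92) and the corner (7.68), an expected count from distance alone gave 1.91, 4.47 and 12.6, since by construction it leaves in the high coverage of the region. Medians per distance gave 1.26, 3.37 and 9.19. Body pairs had 1.27 without poorly covered bins, 1.19 with 5 kb bins and 1.34 from 50 kb on. Pairs between the flanks had 2.75 with 5 kb bins and 2.80 with only bins wholly inside the gene as body. All stayed above 1. The share of members called high (15%) was 63.5% with distance alone (map 14.1%), and 38.2% and 4.29% with thresholds of 1.2 and 2 (map 9.17% and 0.785%). The body slope (−0.662) was −0.529 over 50 to 200 kb.

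With distance alone, values turned from below to above 1 inside the low flank, at 1.30, and in the bin at 120690001, at 1.29. The domains of Gli2, Inhbb, En1 and Steap3 then had 1.84, 1.62, 1.45 and 1.40, and the Steap3 corner 1.13 (0.836 to 1.48). With a 250 kb insulation window the En1 domain had 1.009.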
